A study of Mus musculus with 14 samples.

Results

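The Frizzled family was taken as the mouse genes Fzd1, Fzd2, Fzd3, Fzd4, Fzd5, Fzd6, Fzd7, Fzd8, Fzd9 and Fzd10. They were chosen by symbol and by no cut-off on a measured value, though with earlier results of these data known. Each symbol matched 1 gene identifier, so the family holds 10 of the 36047 identifiers in each count table. All 10 genes passed the filter on low counts in both tables. RNA sequencing was done on embryoid bodies, the aggregates that mouse embryonic stem cells form in suspension, kept in mesodermal differentiation medium. The stem cells had been grown on irradiated fibroblast feeders, most of which were removed by a plating step before differentiation. The control line was iHA-Foxk1, which at days 3 and 5 is also marked ND in the titles, and the other line was Foxk1 KO, in which the forkhead transcription factor gene Foxk1 is disrupted. There were 7 groups of 2 libraries each, namely control and KO at days 3, 5 and 10 and, at day 10 alone, KO treated with IWR1. IWR1 is a small molecule known to stabilise Axin and so to dampen beta-catenin signalling; the labels give neither its dose nor its timing. The labels name 1 line of each kind, so a loss of Foxk1 and any other difference between those lines cannot be told apart. Whether both libraries of a group come from separate cultures is not stated there, so p-values measure only the spread between these libraries, which may be technical.

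Frizzled proteins are membrane-spanning receptors whose extracellular cysteine-rich domain binds Wnt proteins. With the co-receptors Lrp5 or Lrp6 they recruit Dishevelled and stabilise beta-catenin, and with Ror2, Ryk or the Vangl and Celsr proteins they take part in planar cell polarity and other beta-catenin-independent routes. By sequence the family falls into the subgroups Fzd1, Fzd2 and Fzd7; Fzd5 and Fzd8; Fzd4, Fzd9 and Fzd10; and Fzd3 and Fzd6, and the results below follow that order. In the early mouse embryo Wnt signalling through these receptors is needed for the primitive streak and the mesoderm that arises from it, and later for the patterning of heart, blood and vessels.

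The genes are scattered over the genome. In mm10 with GENCODE vM21 the identifiers and positions are ENSMUSG00000044674.6 for Fzd1 (chr5:4753839-4758035, minus strand), ENSMUSG00000050288.6 for Fzd2 (chr11:102604396-102608058, plus) and ENSMUSG00000041075.8 for Fzd7 (chr1:59482424-59486955, plus). Fzd5 is ENSMUSG00000045005.9 (chr1:64730558-64737751, minus), and Fzd8 is ENSMUSG00000036904.6. Fzd4 is ENSMUSG00000049791.4 (chr7:89404355-89413134, plus), Fzd9 is ENSMUSG00000049551.2 (chr5:135248938-135251230, minus) and Fzd10 is ENSMUSG00000081683.5 (chr5:128600844-128604093, plus). Fzd3 is ENSMUSG00000007989.7 (chr14:65192449-65262463, minus) and Fzd6 is ENSMUSG00000022297.15 (chr15:39006034-39038188, plus). The annotation gives Fzd1, Fzd2, Fzd7, Fzd8, Fzd9 and Fzd10 a single exon. Fzd3, Fzd5 and Fzd6 each overlap a gene on the opposite strand (Gm9086, Gm38058 and Gm26704), and the sources used here do not state whether counting used strand. Gm9086 had 0 counts in every library, and the other two are not among the identifiers of the tables.

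The promoters of 3 members are shown because these genes carry the results that follow: Fzd7 had the highest level per length in 6 of the 7 groups, Fzd4 had the largest log2 fold change of the members between days 3 and 5 in control, and Fzd1 was lower in the KO on both days. Each sequence is the 250 bases before the RefSeq start (GRCm38.p6), written 5′ to 3′ on the gene's own strand, with capitals on copies of GGGCGG, the core of a GC box, and of CCAAT on either strand.
Fzd7 (chr1:59481897-59482146, plus strand): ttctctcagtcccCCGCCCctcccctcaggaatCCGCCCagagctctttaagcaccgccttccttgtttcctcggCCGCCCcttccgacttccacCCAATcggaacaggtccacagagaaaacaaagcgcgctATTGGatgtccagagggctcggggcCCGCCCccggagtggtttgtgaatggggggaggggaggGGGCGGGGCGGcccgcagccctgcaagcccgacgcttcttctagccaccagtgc
Fzd4 (chr7:89404116-89404365, plus strand): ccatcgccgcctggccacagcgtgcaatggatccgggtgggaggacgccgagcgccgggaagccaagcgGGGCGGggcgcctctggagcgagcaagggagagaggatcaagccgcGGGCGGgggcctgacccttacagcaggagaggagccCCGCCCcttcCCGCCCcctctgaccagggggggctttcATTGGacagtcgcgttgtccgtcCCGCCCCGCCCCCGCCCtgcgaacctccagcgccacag
Fzd1 (chr5:4758217-4758466, minus strand): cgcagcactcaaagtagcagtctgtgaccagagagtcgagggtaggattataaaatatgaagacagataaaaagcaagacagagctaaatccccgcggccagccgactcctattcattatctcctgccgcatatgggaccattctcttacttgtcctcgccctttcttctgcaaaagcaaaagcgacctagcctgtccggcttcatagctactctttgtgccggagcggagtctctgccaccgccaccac
The Fzd4 window held 7 copies of GGGCGG and 1 of CCAAT, the Fzd7 window 6 and 2, and the Fzd1 window none of either; copies of GGGCGG can overlap one another. RefSeq promoters were matched for 6 members (Fzd1, Fzd4, Fzd5, Fzd7, Fzd9 and Fzd10), of which 5 held GGGCGG and 3 held CCAAT, against 32.7% and 33.8% of the 32851 promoters of that length in the table. The Tcf/Lef letters CTTTGAT and CTTTGAA were in 0 of the 6 (3.21% and 4.46% of all promoters), the forkhead letters TGTTTAC in 0 (3.17%) and TGTTTGC in 1, that of Fzd10 (4.3%). These are matches of letters within a short window and say nothing of whether a factor binds there or elsewhere. The Fzd10 window (chr5:128600856-128601105) lies inside the single exon that GENCODE gives the gene. The Fzd9 window (chr5:135251048-135251297) lies partly inside its exon.

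Library depth was 10574194 to 11621032 counts at days 3 and 5 and 34466708 to 52747273 at day 10, where the table was made separately, so levels set across the tables were not tested. A level of 3 counts corresponded to 0.254 to 0.298 CPM, the counts of a gene scaled to a common library size, and to 0.0621 to 0.0827 CPM. Foxk1 itself had 86.3 and 76.4 CPM in the 2 control libraries and 16.2 and 16.5 CPM in the 2 KO libraries at day 3, and 134 and 133 CPM against 38.2 and 33.6 CPM at day 5, with no overlap. At day 10 it had 65.0 and 80.1 CPM in libraries labelled control, 71.3 and 41.8 CPM in those labelled KO and 26.4 and 52.9 CPM in those labelled KO with IWR1, a difference between control and KO that did not pass the test (log2 fold change -0.36 ± 0.39 (SE), adjusted p = 0.722). For day 10, KO and control below mean the libraries so labelled. The 2 day 5 KO libraries stood apart from each other. Their chi-square per degree of freedom over genes was 19.2, against 1.84 for the day 3 control pair, 1.86 for the day 3 KO pair and 3.68 for the day 5 control pair; it was 50.2, 152 and 142 for the deeper day 10 pairs of control, KO and KO with IWR1.

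Per length of exon, Fzd7 and Fzd2 made up most of the family's transcripts in every group. At day 3 the control embryoid bodies had 41.9 ± 0.0802 CPM per kb of exon for Fzd7 (SD, n = 2), 16.9 ± 0.0161 for Fzd2 and 16.3 ± 0.518 for Fzd10, and the other 7 members each lay below 4. Fzd7 thus held 47.2% ± 0.580 (SD, n = 2) of the summed per-length level of the 10 genes, and Fzd4, the least abundant member there, 0.885% ± 0.0925. In the order of levels at day 3 in control, Fzd5 and Fzd1, Fzd3 and Fzd8, and Fzd9 and Fzd4 were neighbours whose libraries overlapped.
By day 5 the control had 3 leading members: Fzd7 with 29.1% ± 1.85 of the family and Fzd2 with 28.8% ± 2.61, which overlapped, and Fzd4, the receptor of Norrin as well as of Wnt proteins, with 24.0% ± 0.629. At day 10 the control order was Fzd7 (36.7% ± 0.114), Fzd2 (18.9% ± 0.843), Fzd1 (17.5% ± 0.375) and Fzd4 (10.8% ± 0.0481), with no overlap between neighbours, followed by Fzd3, Fzd5 and Fzd8, of which neighbours overlapped.

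The KO groups had another make-up. At day 3 the KO kept Fzd7 at 47.5% ± 0.492 and Fzd2 at 23.3% ± 0.553 of the family, while Fzd10 held 9.91% ± 0.427. At day 5 the KO shares varied widely between its 2 libraries, with Fzd7 at 37.0% ± 5.37, Fzd2 at 18.2% ± 0.0977, Fzd10 at 16.4% ± 10.5, Fzd5 at 8.82% ± 6.64 and Fzd4 at 6.21% ± 4.54; apart from Fzd7 and Fzd9, which stood first and last, each member overlapped a neighbour. In the libraries labelled KO at day 10, Fzd2 (28.1% ± 3.11), Fzd7 (25.3% ± 0.883) and Fzd1 (24.2% ± 0.419) led, and in those labelled KO with IWR1 Fzd7 (26.5% ± 2.36) and Fzd2 (25.9% ± 0.325), which overlapped, were followed by Fzd1 (17.5% ± 1.94) and Fzd10 (12.6% ± 1.27). The summed per-length level of the 10 genes was 88.9 ± 0.923 CPM per kb (SD, n = 2) in control and 68.5 ± 1.15 in KO at day 3, 102 ± 4.53 and 82.1 ± 12.9 at day 5, and 88.7 ± 5.73, 83.7 ± 9.56 and 92.7 ± 11.2 in control, KO and KO with IWR1 at day 10. These sums and shares describe the libraries and were not tested.

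**Figure D1:**
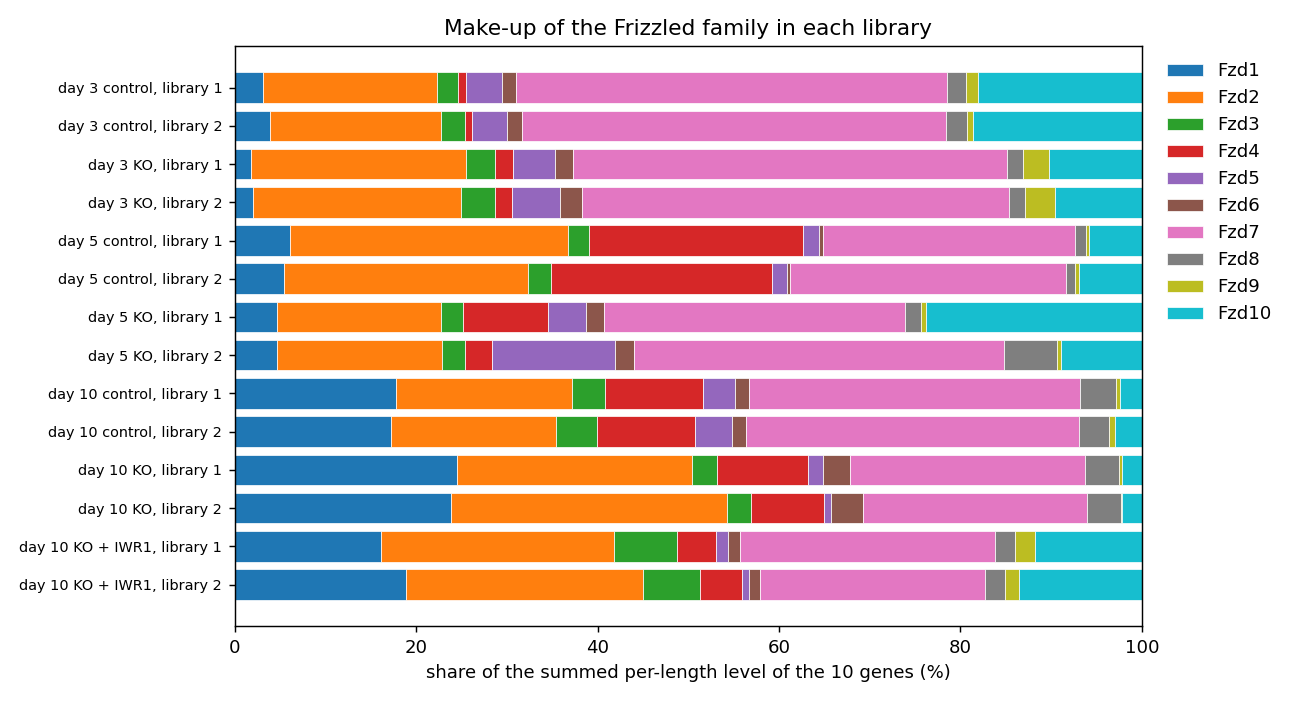
Stacked bars, 1 per library (vertical axis), of the share that each Frizzled gene held of the summed per-length level of the 10 genes (horizontal axis, percent), with 1 colour per gene. The Fzd4 segment, 0.885% on average in day 3 control, is 24.0% in day 5 control, and the 2 day 5 KO bars differ from each other in Fzd4, Fzd5, Fzd8 and Fzd10.

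Between days 3 and 5 in control, Fzd4 had the largest log2 fold change of the members. In CPM on the scaled library sizes, Fzd4 stood at 5.63 and 4.93 CPM in the 2 day 3 libraries and at 167 and 162 CPM in the 2 day 5 libraries, 31.1-fold higher (log2 fold change 4.96 ± 0.49 (SE), adjusted p = 6.67e-04, edgeR's quasi-likelihood test, Benjamini-Hochberg adjusted over the whole table, threshold 0.05). Both day 5 libraries lay far above both day 3 libraries. In all 6 of 10 members passed the test, 3 higher and 3 lower, where 60.8% of all 14430 genes tested passed, 30.6% higher and 30.2% lower. The share of members that passed is near that of all genes. The median log2 fold change of the members was -0.61, beside -0.0095 over all genes, and the median size of the change regardless of sign was 0.97 beside 0.51. Because these are whole embryoid bodies, more or fewer cells of a type and more or less RNA per cell cannot be told apart, here and in every comparison that follows.

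Of the Fzd1, Fzd2 and Fzd7 subgroup, Fzd1 rose from 11.4 and 14.5 CPM to 27.0 and 22.4 CPM (log2 fold change 0.92 ± 0.17 (SE), adjusted p = 0.00130). Fzd2, a receptor widely found in mesenchyme, rose from 61.9 and 61.8 CPM to 118 and 97.7 CPM (0.80 ± 0.12 (SE), adjusted p = 4.85e-04). Neither gene's day 3 and day 5 libraries overlapped. Fzd7, a receptor prominent in undifferentiated stem cells, went from 190.3 and 189.8 CPM to 133 and 136 CPM, lower in both day 5 libraries, and did not pass (-0.50 ± 0.19 (SE), adjusted p = 0.0624); it did pass with DESeq2 (adjusted p = 0.00446).

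Fzd6, which acts in planar cell polarity of the skin, fell from 6.69 and 6.87 CPM to 2.48 and 1.69 CPM in control (log2 fold change -1.70 ± 0.27 (SE), adjusted p = 4.57e-04). Fzd10, whose transcript marks the primitive streak and the dorsal neural tube, fell from 51.9 and 54.2 CPM to 19.9 and 22.3 CPM (-1.33 ± 0.35 (SE), adjusted p = 0.0208), and Fzd9 from 2.55 and 1.41 CPM to 0.694 and 0.894 CPM (-1.31 ± 0.44 (SE), adjusted p = 0.0266). For all 3 the day 5 libraries lay below the day 3 libraries. The fall of Fzd10 no longer passed without any 1 of the 4 control libraries (log2 fold change -1.42 to -1.26) or without the filter on low counts (adjusted p = 0.0645). That of Fzd9 no longer passed without control library 1 of day 3 or either control library of day 5 (-1.50 to -0.82). It did not pass with DESeq2 either (adjusted p = 0.128). In each fit without 1 library fewer of all genes passed too. Fzd3 had 26.4 and 30.0 CPM at day 3 and 30.6 and 30.9 CPM at day 5 without passing (0.12 ± 0.14 (SE), adjusted p = 0.46), and Fzd5 (23.6 and 23.9 CPM at day 3, 12.7 and 10.7 CPM at day 5) and Fzd8 (11.0 and 12.3 CPM, 7.83 and 6.36 CPM) were lower at day 5 without passing (-1.02 ± 0.76 (SE), adjusted p = 0.304 and -0.72 ± 0.69 (SE), adjusted p = 0.415). When the spread was estimated from the 4 control libraries alone, 9 members passed: Fzd5 (adjusted p = 4.75e-07), Fzd7 (6.71e-09) and Fzd8 (0.00111) joined the 6 above, each lower at day 5. In that fit 70.5% of all 13710 genes tested passed, also more than the 60.8% of the main fit.
 Over the same 2 days 7 of 8 markers of undifferentiated cells and 8 of 8 of the primitive streak fell in control, while 8 of 8 blood, 7 of 8 fibroblast and mesenchyme and 4 of 6 endothelial markers rose. The streak markers summed to 2533 to 2642 CPM at day 3 and 42.9 to 67.0 CPM at day 5, the fibroblast and mesenchyme markers to 91.0 to 91.3 CPM and 1284 to 1566 CPM, and the blood markers to 4.23 to 5.02 CPM and 1384 to 1449 CPM. At day 3 Hba-x, Hbb-bh1, Hbb-y, Lum, Afp and Alb were at 0 in both control libraries. The part of these cell types in the Frizzled changes was not tested.

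**Figure D2:**
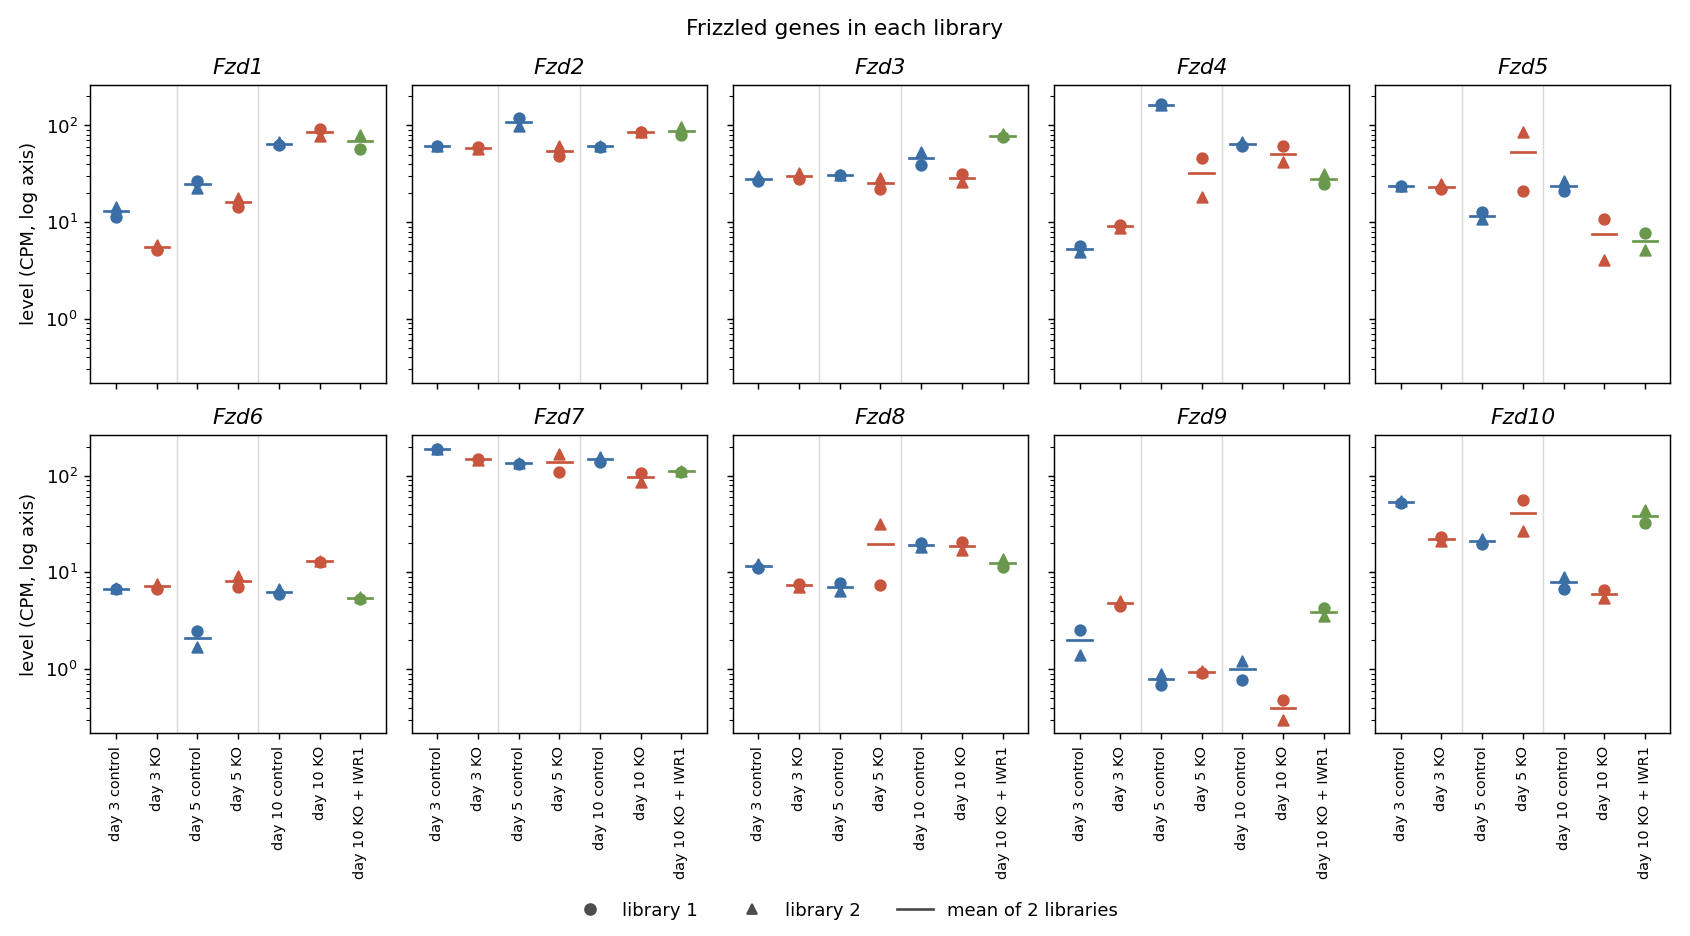
Level of each Frizzled gene (vertical axis, CPM on a log scale) in 7 groups along the horizontal axis, 1 panel per gene, with a circle for library 1, a triangle for library 2 and a line at their mean; day 10 comes from a separate table. The day 5 control points of Fzd4, at 167 and 162 CPM, stand above its other groups, and the day 5 KO points of Fzd5, at 20.9 and 85.2 CPM, lie far apart.

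At day 3 the KO had less Fzd1 and Fzd10 and more Fzd9 than control. These 3 of 10 members passed the test, 1 higher and 2 lower, where 32.9% of all genes passed (16% higher and 16.9% lower), so the share of members is near that of all genes. The median log2 fold change was -0.05 over the members and -0.012 over all genes. Fzd1 had 11.4 and 14.5 CPM in control and 5.22 and 5.75 CPM in KO. Both KO libraries lay below both control libraries, 2.36-fold lower (log2 fold change -1.24 ± 0.20 (SE), adjusted p = 0.00131), and the gene passed under each of the 9 alternative settings run. Fzd10 had 51.9 and 54.2 CPM in control and 23.0 and 21.1 CPM in KO, 2.40-fold lower (-1.27 ± 0.35 (SE), adjusted p = 0.0412). Its log2 fold change stayed between -1.33 and -1.21 over the 9 alternative settings, and it passed with DESeq2. Fzd9, a low gene, had 2.55 and 1.41 CPM in control, or 29 and 16 counts, and 4.51 and 5.07 CPM in KO, or 51 and 60 counts (1.27 ± 0.35 (SE), adjusted p = 0.0220). Neither gene's groups overlapped, yet neither call was firm. Fzd10 did not pass without any 1 of the 4 libraries compared or without the filter on low counts (adjusted p = 0.112). Fzd9 did not pass without control library 2 or either KO library (log2 fold change 0.90 to 1.35), or with DESeq2 (adjusted p = 0.146). In each fit without 1 library fewer of all genes passed too.

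The other 7 members did not pass at day 3. Fzd7 had 190.3 and 189.8 CPM in control and 150.2 and 145 CPM in KO, lower in both KO libraries without passing (-0.37 ± 0.19 (SE), adjusted p = 0.191). Fzd2 had 61.9 and 61.8 CPM and 60.2 and 56.9 CPM (-0.079 ± 0.12 (SE), adjusted p = 0.657), and Fzd5 (23.6 and 23.9 CPM and 22.0 and 24.8 CPM) and Fzd6 (6.69 and 6.87 CPM and 6.72 and 7.61 CPM) did not pass either (adjusted p = 0.990 and 0.820). For Fzd2 the 95% interval of the log2 fold change was -0.36 to 0.20, and for Fzd3, at 26.4 and 30.0 CPM in control and 27.8 and 32.2 CPM in KO, it was -0.22 to 0.40. Fzd4 was higher in both KO libraries (9.37 and 8.70 CPM, against 5.63 and 4.93 CPM), and Fzd8, a receptor of the anterior embryo, was lower (7.61 and 7.10 CPM, against 11.0 and 12.3 CPM), neither passing (0.77 ± 0.60 (SE), adjusted p = 0.390 and -0.67 ± 0.68 (SE), adjusted p = 0.510). When the spread was estimated from the 4 day 3 libraries alone, 6 members passed: Fzd4 (adjusted p = 6.45e-04), Fzd7 (1.08e-09) and Fzd8 (6.18e-04) joined the 3 above. In that fit 53.7% of all 13658 genes tested passed, so the share of members is again near that of all genes.

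Cell type markers moved beside these genes at day 3. All 8 primitive streak markers were lower in KO, summing to 249 to 301 CPM against 2533 to 2642 CPM in control, and 5 of 7 neural markers tested were higher, at 343 to 344 CPM against 191 to 195 CPM, with Neurog2 at 0 in both groups. Their part in the levels of Fzd1, Fzd9 and Fzd10 was not tested.

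At day 5 the KO had less Fzd4, Fzd2 and Fzd1 and more Fzd6 than control. Fzd4 had 167 and 162 CPM in control and 46.2 and 18.4 CPM in KO, 5.10-fold lower (log2 fold change -2.35 ± 0.40 (SE), adjusted p = 0.00774). Both KO libraries lay below both control libraries, though they differed between themselves. Fzd2 had 118 and 97.7 CPM in control and 48.4 and 60.9 CPM in KO (-0.98 ± 0.12 (SE), adjusted p = 3.40e-04), and Fzd1 27.0 and 22.4 CPM and 14.4 and 17.8 CPM (-0.62 ± 0.17 (SE), adjusted p = 0.0162). Fzd6 went the other way, with 2.48 and 1.69 CPM in control and 7.13 and 9.16 CPM in KO, 3.90-fold higher (1.96 ± 0.26 (SE), adjusted p = 3.60e-04). None of these 4 genes had overlapping groups. They are the 4 of 10 members that passed, 1 higher and 3 lower, where 43.5% of all genes passed, 21.9% higher and 21.7% lower. Fzd2, Fzd4 and Fzd6 passed under each of the 9 alternative settings, while Fzd1 did not pass without control library 1 (adjusted p = 0.135) or with DESeq2 (0.0661). Leaving out KO library 1 took the log2 fold change of Fzd4 to -3.16, and leaving out KO library 2 took it to -1.84.

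For 4 other members the day 5 KO libraries lay far apart. Fzd5, a receptor needed for the vessels of the yolk sac and placenta, had 12.7 and 10.7 CPM in control, 20.9 in KO library 1 and 85.2 in KO library 2. Both KO values were above control, but the spread between them left the difference short of the threshold (log2 fold change 2.18 ± 0.73 (SE), adjusted p = 0.0718; DESeq2 adjusted p = 0.00714). Fzd8 had 7.83 and 6.36 CPM in control, 7.49 in KO library 1, within the control values, and 31.8 in KO library 2 (1.47 ± 0.68 (SE), adjusted p = 0.139; DESeq2 0.0114). Fzd10 was highest in KO library 1, at 56.5 against 26.5 in KO library 2 and 19.9 and 22.3 CPM in control (0.98 ± 0.36 (SE), adjusted p = 0.0764; DESeq2 0.00251). Fzd7 had 110.0 and 169 CPM in the KO libraries, on either side of the control at 133 and 136 CPM, so its log2 fold change was -0.30 without KO library 2 and 0.32 without KO library 1. When either KO library was left out, more members passed than with both, and the share of all genes that passed was higher too. The log2 fold change of Fzd5 was 2.86 without KO library 1 and 0.82 without KO library 2, and that of Fzd10 was 0.33 and 1.41. The remaining KO library is then assumed to vary like the other groups. Fzd3 (30.6 and 30.9 CPM in control, 22.2 and 29.0 CPM in KO) and Fzd9 (0.694 and 0.894 CPM and 0.903 and 0.960 CPM) did not pass (-0.26 ± 0.14 (SE), adjusted p = 0.154 and 0.23 ± 0.48 (SE), adjusted p = 0.729).

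The same 2 KO libraries differed in their cell type markers. Library 1 had more of the endothelial list (487 against 180.4 CPM in library 2), the blood list (181 against 46.6) and the fibroblast and mesenchyme list (424 against 135), and library 2 more of the primitive streak list (353 against 179) and the undifferentiated list (447 against 246). Library 1, richer in vessel, blood and mesenchyme markers, was the one with more Fzd4 and Fzd10. Library 2 was the one with more of every other member, Fzd5, Fzd7 and Fzd8 included. Against control, the KO at day 5 had 7 of 8 undifferentiated, 6 of 8 streak and 5 of 5 epithelial markers higher and 6 of 8 blood and 5 of 8 fibroblast and mesenchyme markers lower. In control the blood list summed to 1384 to 1449 CPM, the fibroblast and mesenchyme list to 1284 to 1566 CPM, the undifferentiated list to 59.6 to 65.9 CPM and the streak list to 42.9 to 67.0 CPM. None of the 6 endothelial markers passed between KO and control at day 5 by edgeR or DESeq2, or at an unadjusted p under 0.05. The part of these markers in the Frizzled differences was not tested.

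**Figure D3:**
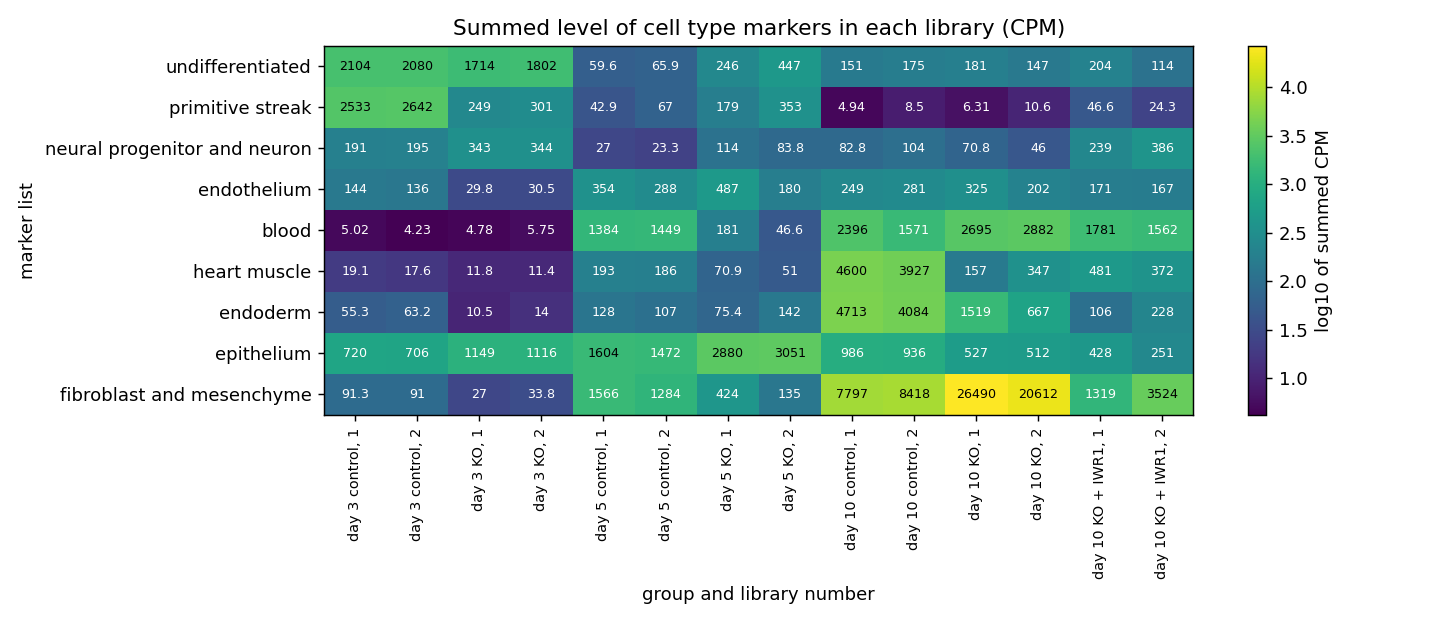
Heat map of the summed level of 9 marker lists (rows) in each of the 14 libraries (columns), with the sum in CPM written in each cell and the colour on a log10 scale. The primitive streak list is at 2533 and 2642 CPM in day 3 control and at 249 and 301 CPM in day 3 KO, and the 2 day 5 KO libraries differ in the blood, endothelium and fibroblast lists.

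From day 3 to day 5 in the KO, 3 of 10 members passed, 2 higher and 1 lower, where 53.8% of all genes passed, 28.3% higher and 25.5% lower. This course shares its libraries with the comparisons of KO and control. Fzd1 rose from 5.22 and 5.75 CPM to 14.4 and 17.8 CPM (log2 fold change 1.55 ± 0.19 (SE), adjusted p = 1.47e-04), and Fzd9 fell from 4.51 and 5.07 CPM to 0.903 and 0.960 CPM (-2.35 ± 0.39 (SE), adjusted p = 8.38e-04). Both passed under the 9 alternative settings. Fzd4 rose from 9.37 and 8.70 CPM to 46.2 and 18.4 CPM (1.83 ± 0.48 (SE), adjusted p = 0.0262), but did not pass without either day 3 KO library (adjusted p = 0.0962 without library 1 and 0.109 without library 2) or without the filter on low counts (0.0636). Fzd2, which rose in control, had 60.2 and 56.9 CPM at day 3 and 48.4 and 60.9 CPM at day 5 in the KO (-0.098 ± 0.12 (SE), adjusted p = 0.527). Fzd6, which fell in control, had 6.72 and 7.61 CPM and 7.13 and 9.16 CPM (0.19 ± 0.23 (SE), adjusted p = 0.512).

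The other 5 members did not pass in the KO course either. Fzd10 was higher in both day 5 KO libraries, at 56.5 and 26.5 CPM against 23.0 and 21.1 CPM at day 3 (log2 fold change 0.91 ± 0.35 (SE), adjusted p = 0.0759), and it passed with DESeq2 (adjusted p = 0.00454). Fzd8 had 7.61 and 7.10 CPM at day 3 and 7.49 and 31.8 CPM at day 5, high in day 5 library 2 alone (1.42 ± 0.66 (SE), adjusted p = 0.129; DESeq2 0.0123). Fzd5 had 22.0 and 24.8 CPM and 20.9 and 85.2 CPM, with its day 3 values between those of the day 5 libraries (1.18 ± 0.67 (SE), adjusted p = 0.204), and Fzd3 had 27.8 and 32.2 CPM and 22.2 and 29.0 CPM (-0.23 ± 0.14 (SE), adjusted p = 0.191). When either day 5 KO library was left out, more members passed than with both. The share of all genes that passed was then about the same without library 1 and higher without library 2. The log2 fold change of Fzd5 was 1.86 without day 5 KO library 1 and -0.19 without day 5 KO library 2. Fzd7 went from 150.2 and 145 CPM to 110.0 and 169 CPM, and its log2 fold change was -0.08, 0.20 without library 1 and -0.45 without library 2.

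The difference between KO and control itself changed from day 3 to day 5 for 4 of 10 members, 2 towards a more positive and 2 towards a more negative log2 fold change, where 24.2% of all genes passed this test (13.4% more positive and 10.8% more negative). For Fzd2 the KO minus control difference was -0.079 at day 3 and -0.98 at day 5, a change of -0.90 ± 0.17 (SE), adjusted p = 0.00627. For Fzd6 it was 0.08 and 1.96, a change of 1.88 ± 0.35 (SE), adjusted p = 0.00435. Both changes passed under the 12 alternative settings. For Fzd4 the difference was 0.77 and -2.35 (change -3.12 ± 0.72 (SE), adjusted p = 0.0353), and for Fzd10 -1.27 and 0.98 (change 2.24 ± 0.50 (SE), adjusted p = 0.0270). These last changes did not pass without any 1 of the day 3 libraries or either day 5 control library. They were then -3.22 to -3.03 for Fzd4 and 2.16 to 2.32 for Fzd10, and fewer of all genes passed in each of these fits too. Without the filter on low counts they did not pass either (adjusted p = 0.0768 for Fzd4 and 0.0810 for Fzd10). For Fzd1, lower in the KO on both days, the change was 0.63 with a 95% interval of 0.043 to 1.21 and did not pass (adjusted p = 0.112). The changes of Fzd5 (2.20, 95% interval -0.47 to 4.88, adjusted p = 0.198) and Fzd8 (2.14 ± 0.96 (SE), adjusted p = 0.177) were large but did not pass; that of Fzd8 passed with DESeq2 (adjusted p = 0.0159). Those of Fzd9 (-1.04 ± 0.61 (SE), adjusted p = 0.248), Fzd7 (0.42 ± 0.26 (SE), adjusted p = 0.313) and Fzd3 (-0.35 ± 0.20 (SE), adjusted p = 0.226) did not pass.

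**Figure D4:**
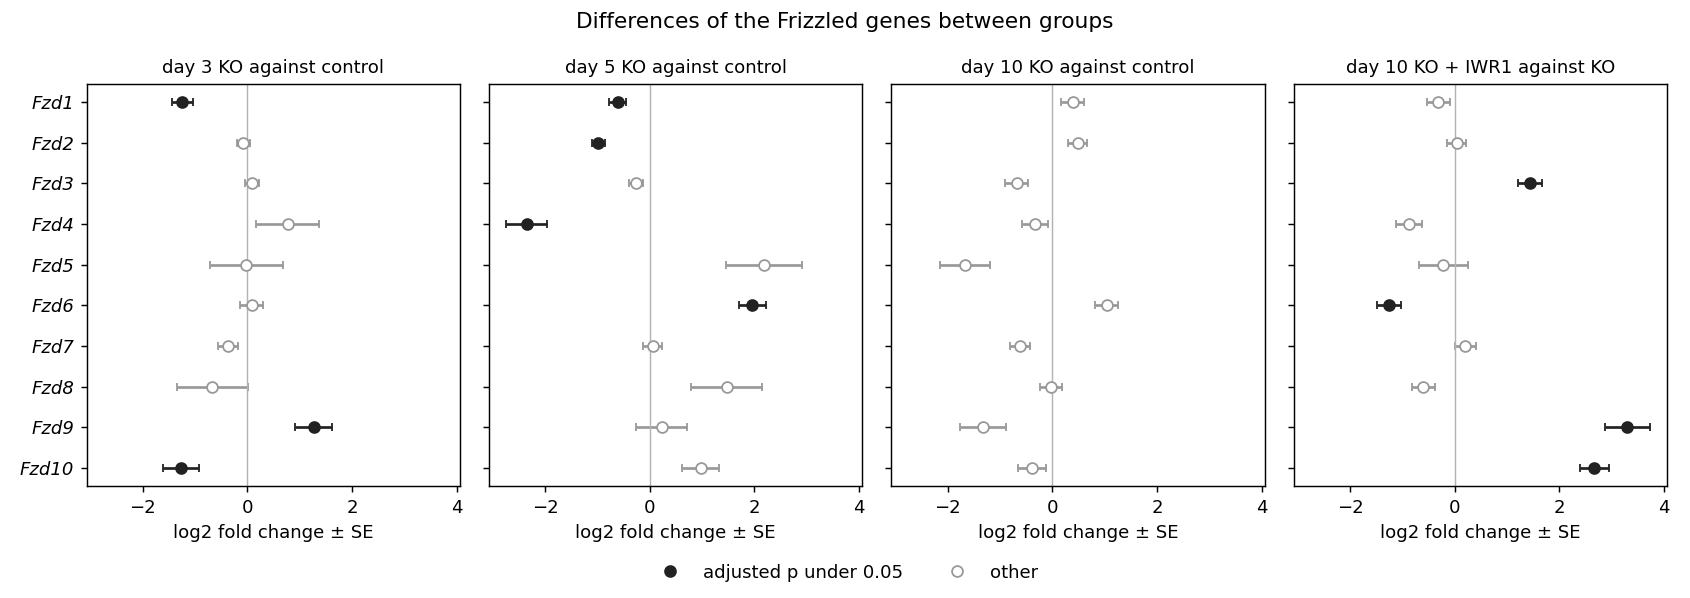
Log2 fold change of each Frizzled gene (horizontal axis, point with its standard error) for KO against control at days 3, 5 and 10 and for KO with IWR1 against KO at day 10, with filled points where the adjusted p was under 0.05. At day 5 Fzd4 lies lowest, at -2.35, and at day 10 Fzd9 and Fzd10 lie highest with IWR1, at 3.30 and 2.67.

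At day 10 no member passed between the libraries labelled KO and control by edgeR's quasi-likelihood test, where 5.27% of the 17022 genes tested passed, 1.92% higher and 3.35% lower. At an unadjusted p under 0.05 there were 6 of 10 members. The share of all genes at that threshold was not counted, so this number is no result about the family. With DESeq2, and also without the filter on low counts, 2 members passed, Fzd5 and Fzd6 (adjusted p without the filter = 0.0175 and 0.0363). Of all genes 11.4% passed with DESeq2 and 7.09% without the filter. Fzd6 had 5.95 and 6.73 CPM in control and 12.8 and 13.3 CPM in KO, 2.05-fold higher (log2 fold change 1.04 ± 0.23 (SE), adjusted p = 0.0514; DESeq2 adjusted p = 0.00451). Fzd5 had 20.9 and 26.7 CPM in control and 10.9 and 4.10 CPM in KO, 3.17-fold lower (-1.67 ± 0.47 (SE), adjusted p = 0.106; DESeq2 0.00414). The groups of both genes did not overlap, and the 2 KO libraries of Fzd5 were well apart. Without KO library 1 Fzd5 was the 1 member that passed, at -2.58 (adjusted p = 0.0225).

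The other 8 members passed at day 10 by neither tool. Fzd7 had 140.3 and 154 CPM in control and 106 and 86.0 CPM in KO (-0.62 ± 0.19 (SE), adjusted p = 0.135). Fzd2 had 60.3 and 62.0 CPM and 86.0 and 85.5 CPM (0.49 ± 0.19 (SE), adjusted p = 0.208), and Fzd1 62.9 and 66.9 CPM and 92.9 and 77.1 CPM (0.39 ± 0.23 (SE), adjusted p = 0.431). Fzd7 was thus lower and Fzd1 and Fzd2 higher in both libraries labelled KO, without passing. Fzd3, a receptor best known from axon guidance, had 39.2 and 53.5 CPM and 31.7 and 26.1 CPM (-0.68 ± 0.23 (SE), adjusted p = 0.156). Fzd4 had 61.6 and 67.0 CPM and 60.8 and 41.6 CPM (-0.33 ± 0.25 (SE), adjusted p = 0.573), and the 95% interval of its log2 fold change was -0.93 to 0.27. Fzd8, at 19.9 and 18.5 CPM and 20.6 and 17.2 CPM, overlapped, Fzd9 had 0.770 and 1.22 CPM and 0.485 and 0.301 CPM, and Fzd10 had 6.74 and 9.03 CPM and 6.57 and 5.44 CPM. Of the heart muscle markers 7 of 8 were lower in KO, at 157 to 347 CPM against 3927 to 4600.2 CPM, and the endoderm list summed to 667 to 1519 CPM against 4084 to 4713 CPM, with 4 of 8 lower. The fibroblast and mesenchyme list was at 20612 to 26490.3 CPM in KO and 7797 to 8418 CPM in control, with 2 of 8 higher. Their part in the Frizzled levels was not tested.

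With IWR1 the KO embryoid bodies of day 10 had more Fzd10, Fzd9 and Fzd3 and less Fzd6. These 4 of 10 members passed against untreated KO, 3 higher and 1 lower, where 13.9% of all genes passed, 5.77% higher and 8.08% lower. The median log2 fold change was -0.091 over the members and -0.0054 over all genes. Fzd10 had 6.57 and 5.44 CPM in KO and 32.3 and 44.2 CPM with IWR1, 6.36-fold higher (log2 fold change 2.67 ± 0.28 (SE), adjusted p = 0.00791). Fzd9 had 0.485 and 0.301 CPM in KO, or 20 and 11 counts, and 4.31 and 3.53 CPM with IWR1, or 208 and 128 counts, 9.85-fold higher (3.30 ± 0.43 (SE), adjusted p = 0.0117). In both genes the treated libraries lay several times above the untreated ones, and both passed under each of the 9 alternative settings. Fzd3 had 31.7 and 26.1 CPM in KO and 75.3 and 81.2 CPM with IWR1 (1.44 ± 0.23 (SE), adjusted p = 0.0172). Fzd6 had 12.8 and 13.3 CPM and 5.26 and 5.62 CPM (-1.26 ± 0.23 (SE), adjusted p = 0.0203). Neither overlapped, but Fzd3 did not pass without IWR1 library 1 or KO library 2 (log2 fold change 1.49 and 1.30). Fzd6 did not pass without IWR1 library 1 or either KO library (log2 fold change -1.26 to -1.21). In each of these fits fewer of all genes passed too. With the spread taken from these 4 libraries alone Fzd6 did not pass (adjusted p = 0.0596). With the replicate number as a block Fzd6 did not pass either (0.0519).

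Fzd4 was lower with IWR1 in both libraries, at 24.6 and 31.5 CPM against 60.8 and 41.6 CPM in KO, without passing (-0.87 ± 0.25 (SE), adjusted p = 0.0667; DESeq2 adjusted p = 0.0215; without the filter on low counts 0.0239). The abundant members Fzd1, Fzd2 and Fzd7 had overlapping or close values: 108 and 113 CPM for Fzd7 (0.20 ± 0.19 (SE), adjusted p = 0.488), 79.7 and 96.3 CPM for Fzd2 (0.037 ± 0.19 (SE), adjusted p = 0.904) and 57.4 and 79.8 CPM for Fzd1 (-0.31 ± 0.23 (SE), adjusted p = 0.375). Fzd5 (7.70 and 5.15 CPM) and Fzd8 (11.4 and 13.7 CPM) did not pass either (-0.22 ± 0.47 (SE), adjusted p = 0.767 and -0.60 ± 0.22 (SE), adjusted p = 0.108).

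Against control, which shares the IWR1 libraries with the comparison above, the treated KO differed in Fzd10, Fzd9 and Fzd4, 3 of 10 members with 2 higher and 1 lower, where 9.12% of all genes passed, 2.99% higher and 6.13% lower. Fzd10, at 6.74 and 9.03 CPM in control, was 4.85-fold higher with IWR1 (log2 fold change 2.28 ± 0.28 (SE), adjusted p = 0.00768), and Fzd9, at 0.770 and 1.22 CPM, was 3.95-fold higher (1.98 ± 0.40 (SE), adjusted p = 0.0338). Fzd4, at 61.6 and 67.0 CPM, was 2.29-fold lower (-1.20 ± 0.25 (SE), adjusted p = 0.0387). The groups did not overlap for any of the 3. Without control library 1 none of them passed, at log2 fold changes of 2.08 for Fzd10, 1.68 for Fzd9 and -1.26 for Fzd4. Without control library 2 or IWR1 library 1 Fzd10 passed, and Fzd9 and Fzd4 did not. In each of these fits fewer of all genes passed too. With the replicate number as a block, Fzd10 passed and Fzd4 (0.0789) and Fzd9 (0.0628) did not.

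Fzd5, at 20.9 and 26.7 CPM in control, was lower in both treated libraries without passing (log2 fold change -1.89 ± 0.48 (SE), adjusted p = 0.0583); it passed with DESeq2 (6.59e-04), without the filter on low counts (0.00618) and with the spread from these 4 libraries alone (0.0118). Fzd3, at 39.2 and 53.5 CPM in control, was higher in both treated libraries (0.76 ± 0.23 (SE), adjusted p = 0.0851; DESeq2 0.0384). Fzd8 (-0.62 ± 0.22 (SE), adjusted p = 0.115) and Fzd7 (-0.41 ± 0.19 (SE), adjusted p = 0.195) were lower and Fzd2 (0.52 ± 0.19 (SE), adjusted p = 0.117) higher in both treated libraries than in control, without passing. Fzd6 (-0.22 ± 0.23 (SE), adjusted p = 0.514) and Fzd1 (0.08 ± 0.23 (SE), adjusted p = 0.824) lay closest to control and did not pass.

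Neural markers were high in the same treated libraries. Of 8, 7 were higher than in KO, summing to 239 to 386 CPM against 46.0 to 70.8 CPM in KO and 82.8 to 104 CPM in control. The fibroblast and mesenchyme list was at 1319 to 3524 CPM with IWR1 against 20612 to 26490.3 CPM in KO, with 6 of 8 lower and Thy1 higher. The primitive streak list, low at day 10, was also higher with IWR1, at 24.3 to 46.6 CPM against 6.31 to 10.6 CPM in KO and 4.94 to 8.50 CPM in control, and 2 of its 8 markers, T and Gsc, passed against KO. Of the heart muscle markers 3 of 8 were higher than in KO (372 to 481 CPM against 157 to 347 CPM), and of the endoderm markers 3 of 8 were lower and Foxa2 higher (106 to 228 CPM against 667 to 1519 CPM). The part of these markers in Fzd3, Fzd6, Fzd9 and Fzd10 was not tested.

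Genes that act with the Frizzled receptors were counted from lists of the pathway, here and in the next paragraphs. Of all genes, 32.9% passed between KO and control at day 3, 43.5% at day 5 and 5.27% at day 10. For IWR1 against KO 13.9% passed. A list count near these shares is no result about the list. The share of all genes at an unadjusted p under 0.05 was not counted. Among 6 co-receptors and alternative Wnt receptors tested, Lrp6 alone passed at day 3, lower in KO (log2 fold change -0.25 ± 0.062 (SE), adjusted p = 0.0141). At day 5 Lrp6 (-0.34 ± 0.063 (SE), adjusted p = 0.00202), Ror1, Ror2 (-0.49 ± 0.095 (SE), adjusted p = 0.00267) and Ryk (-0.63 ± 0.087 (SE), adjusted p = 4.18e-04) were lower in KO. Lrp5 and Ptk7, a polarity co-receptor, did not pass on either day (Lrp5 0.087 ± 0.055 (SE), adjusted p = 0.229 and Ptk7 -0.16 ± 0.09 (SE), adjusted p = 0.189 at day 5). The day 3 difference of Lrp6 did not pass with DESeq2, while the same number, 4, passed with DESeq2 at day 5. At day 10 none of the 6 passed between KO and control by edgeR's quasi-likelihood test or DESeq2, with 2 at an unadjusted p under 0.05.

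Of 14 Wnt ligands tested, 4 were higher and 7 lower in KO at day 3 (median log2 fold change -1.22, beside -0.012 over all genes), and 7 were higher and 1, Wnt2, lower at day 5 (median 1.59, beside 0.0098). At day 10, of 18 tested, 2 were higher and 2 lower in KO, and with IWR1 7 were higher and 2 lower than in KO. A list of target and feedback genes of beta-catenin signalling, 9 of which were tested at days 3 and 5, had 7 lower in KO at day 3 (none higher by edgeR or at an unadjusted p under 0.05, 1 higher by DESeq2), and 4 higher and 3 lower at day 5. Axin2, which is induced by the pathway and restrains it, had 172 and 186 CPM in control and 57.4 and 61.5 CPM in KO at day 3, a log2 difference of -1.59 ± 0.18 (SE), adjusted p = 0.00116. At day 5 it had 50.9 and 51.1 CPM in control and 96.3 and 63.8 CPM in KO (0.65 ± 0.19 (SE), adjusted p = 0.0316). Its KO libraries thus lay below control at day 3 and above it at day 5. At day 10 it was at 15.1 and 11.3 CPM in KO and 21.6 and 42.7 CPM with IWR1, which did not pass (1.28 ± 0.35 (SE), adjusted p = 0.0583), and 3 of 8 genes of that list tested (Ccnd1, Myc and Sp5) were higher with IWR1.

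Frizzled receptors are taken off the cell surface by the ubiquitin ligases Rnf43 and Znrf3, which R-spondins block through Lgr receptors. At day 3, 1 of 7 genes of this axis was higher in KO (Lgr4) and 2 were lower, Lgr5 (-1.32 ± 0.35 (SE), adjusted p = 0.0178) and Rspo3 (-3.26 ± 0.18 (SE), adjusted p = 1.55e-06). At day 5, 3 were higher, Lgr5 (0.91 ± 0.24 (SE), adjusted p = 0.0129), Lgr6 and Znrf3 (0.49 ± 0.15 (SE), adjusted p = 0.0284), of which 1 passed with DESeq2. The share of the axis that passed at day 5 is near the 43.5% of all genes. At day 10, of 9 tested, Lgr5 (-1.41 ± 0.30 (SE), adjusted p = 0.0455) and Rnf43 (-1.78 ± 0.37 (SE), adjusted p = 0.0447) were lower in KO. Genes that serve Fzd4 with Norrin or Wnt7 ligands were tested for 3 of 4 (Adgra2, Reck and Tspan12). All 3 were higher at day 5 than at day 3 in control and also in KO, where Fzd4 was higher at day 5 as well, and at day 5 Reck was lower in KO than in control. Of all genes 30.6% were higher at day 5 than at day 3 in control and 28.3% in KO.

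Secreted Frizzled-related proteins bind Wnt proteins through a Frizzled-like domain. Of 5, Frzb passed at day 3 by edgeR's quasi-likelihood test, lower in KO (-5.01 ± 0.96 (SE), adjusted p = 0.0191), while DESeq2 called 1 higher and 1 lower. Of the same 5, none passed at day 5 by edgeR's quasi-likelihood test, with 1 higher at an unadjusted p under 0.05 and 1 higher by DESeq2. Sfrp1 was at 19.6 and 19.4 CPM in control and 24.5 and 127 CPM in KO at day 5 (1.96 ± 0.82 (SE), adjusted p = 0.122), and Frzb at 25.7 and 24.7 CPM and 14.5 and 71.2 CPM (0.77 ± 0.75 (SE), adjusted p = 0.46), with the higher KO value in library 2 for both. At day 10 Sfrp2 was higher in KO than in control (1.40 ± 0.28 (SE), adjusted p = 0.0405) and higher again with IWR1 (1.30 ± 0.27 (SE), adjusted p = 0.0310); of the 5 genes 2 were higher and 1 lower in KO, and 3 were higher and 1 lower with IWR1 than in KO. Inside the cell, 13 genes of the Dishevelled and beta-catenin core were tested, of which 3 were higher and 2 lower in KO at day 3, and 2 higher and 5 lower at day 5 (Dvl2 -0.25 ± 0.068 (SE), adjusted p = 0.0141). At day 10 none passed between KO and control by edgeR's quasi-likelihood test, with 2 lower at an unadjusted p under 0.05 and 1 lower by DESeq2, and Lef1 was higher with IWR1 than in KO. Of 11 planar cell polarity genes, the usual partners of Fzd3 and Fzd6, 1 was higher and 3 lower in KO at day 3 and 3 higher and 4 lower at day 5. At day 3 the shares of the polarity list and the core list that passed are near the 32.9% of all genes. Vangl2 was -0.089 and -0.18 on the log2 scale in these comparisons and did not pass (adjusted p = 0.498 and 0.150). At day 10, 2 of the 11 were higher with IWR1 than in KO, Celsr2 and Vangl2 (Vangl2 1.15 ± 0.29 (SE), adjusted p = 0.0471). Another 2, Prickle1 and Prickle3, were lower. Of the receptors, Fzd3 was higher and Fzd6 lower in that comparison. Smo, the Frizzled-class receptor of Hedgehog signalling, was lower in KO at day 5 (-0.48 ± 0.047 (SE), adjusted p = 5.49e-05) and did not pass at day 3 (0.12 ± 0.047 (SE), adjusted p = 0.0820).

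The 3 members whose group means ranged most over days 3 and 5 were Fzd4, Fzd9 and Fzd5. Among 13909 other protein-coding genes, those whose log2 CPM over the 8 libraries was most like that of Fzd4 were St3gal5 (Pearson r = 0.998), Spats2l (0.997) and Loxl1 (0.997), and 1280 genes had r over 0.9. For Fzd9 they were Mrpl40 (0.984), Necab2 (0.983) and Nucks1 (0.983), with 592 genes over 0.9. For Fzd5 they were Cntnap2 (0.968), Itgb7 (0.966) and Smg8 (0.965), with 24 over 0.9. The 8 libraries fall into 4 groups that differ in many genes, so these coefficients describe the order of the groups and, for Fzd5, the 1 high KO library of day 5.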

How the data were processed

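Bulk RNA sequencing of 14 libraries of mouse embryoid bodies was deposited as 2 gene count tables, 1 for days 3 and 5 and 1 for day 10. The values are estimated counts per gene identifier that the authors made with kallisto 0.46.2 against mm10, per the submitters' processing notes, and they are whole numbers in the deposited tables; they do not say how transcripts were summed to genes. Libraries were made from poly(A) RNA, per the labels' protocols. No column was left unused (0). Of the 36047 identifiers, 35968 matched GENCODE vM21, which gave symbols, positions and exon lengths.

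Each table was fitted alone with edgeR 4.0.16 (filterByExpr, TMM scaling, robust quasi-likelihood fit, two-sided test, Benjamini-Hochberg adjustment over all genes tested, threshold 0.05) in R 4.3.3, with all groups of the table sharing 1 estimate of the spread: 14430 genes in 8 libraries and 17022 genes in 6. CPM uses TMM-scaled library sizes, and levels per length divide by the exon union in kb. The SE of a log2 fold change was computed from the fold change and its test statistic. The fit was tested on simulated counts. Alternatives were DESeq2 1.42.0, RLE scaling, no filter on low counts, only the compared libraries, the replicate number as a block, leaving out each library, and the length of the longest transcript.

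The 10 members, the pathway lists and the marker lists were chosen with earlier results of these data known. All 10 members were named in every comparison, with a fixed set of pathway genes, and other list members only where a count was 5 or fewer or as part of a marker list. For likeness, the 3 members with the largest range of group means over days 3 and 5 were taken, with the 3 most correlated protein-coding genes of each.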

Additional observations from a re-analysis of the deposited data

Results flagged for a closer look

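For 4 members the difference between KO and control was not the same at days 3 and 5 by edgeR's quasi-likelihood test of the difference itself, which is why they are set out here. The change from day 3 to day 5 was -0.90 on the log2 scale for Fzd2 (adjusted p = 0.00627), and its day 5 libraries had 118 and 97.7 CPM in control and 48.4 and 60.9 CPM in KO. For Fzd6 it was 1.88 (adjusted p = 0.00435), with day 5 values of 2.48 and 1.69 CPM in control and 7.13 and 9.16 CPM in KO. For Fzd4 it was -3.12 (adjusted p = 0.0353), with 167 and 162 CPM in control and 46.2 and 18.4 CPM in KO at day 5. For Fzd10 it was 2.24 (adjusted p = 0.0270), with 19.9 and 22.3 CPM in control and 56.5 and 26.5 CPM in KO at day 5. Fzd2 and Fzd6 passed under all 12 alternative settings run, and Fzd4 and Fzd10 under 5 of 12.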

How the results depend on the processing

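Over the 8 comparisons members passed 27 times, and 14 of these passed in the same direction under every alternative run. RLE scaling changed no number of members that passed. With the spread taken from the compared libraries alone, 6 members passed between KO and control at day 3, against 3, beside 53.7% of all genes. In the control course 9 passed, against 6, beside 70.5% of all genes. Between KO and control at day 10 there was 1, against 0, beside 7.22% of all genes. This setting was not run for the change between days. Without the filter on low counts 2 passed for the change between days, against 4, and 2 between KO and control at day 10, beside 15.6% and 7.09% of all genes. DESeq2 called 20.6% of all genes between KO and control at day 3, 28.2% at day 5 and 11.4% at day 10. It called 43.8% in the control course, 37.8% in the KO course and 16% for the change between days. With IWR1 it called 24.3% against KO and 19.5% against control. With DESeq2 the members higher and lower were 0 and 2 between KO and control at day 3 (1 and 2 with edgeR), 4 and 2 at day 5 (1 and 3), 3 and 3 in the control course (3 and 3), 4 and 1 in the KO course (2 and 1), 3 and 2 for the change between days (2 and 2), 1 and 1 between KO and control at day 10 (0 and 0), 3 and 2 for IWR1 against KO (3 and 1) and 3 and 2 for IWR1 against control (2 and 1). Leaving out 1 library at a time gave 1 to 2 members between KO and control at day 3 (1 without control library 2 or either KO library), 3 to 8 at day 5 (8 without either KO library), 4 to 5 for the control course, 2 to 7 for the KO course (6 without day 5 KO library 1 and 7 without library 2) and 2 to 8 for the change between days. For that change the number was 2 without any 1 of the day 3 libraries or either day 5 control library, and 8 without day 5 KO library 1. At day 10 it gave 0 to 1 between KO and control (1 without KO library 1), 2 to 4 for IWR1 against KO (2 without IWR1 library 1 or KO library 2) and 0 to 3 for IWR1 against control (0 without control library 1, 1 without control library 2 or IWR1 library 1). The share of all genes that passed moved too. Between KO and control at day 5 it was higher when either KO library was left out, as the number of members was. At day 3 and in the control course it was lower without any 1 library, as the number of members was. At day 5 it was lower without either control library, and in the KO course without either day 3 KO library. For the change between days it was lower without any 1 day 3 library or either day 5 control library. For IWR1 against KO it was lower without IWR1 library 1 or either KO library. For IWR1 against control it was lower without IWR1 library 1 or either control library. With all libraries kept, it ranged between KO and control from 20.6% (DESeq2) to 53.7% (compared libraries alone) at day 3. At day 10 it ranged from 3.59% (replicate number as a block) to 11.4% (DESeq2). The cause was not tested. Log2 fold changes turned sign only for members that had not passed. With RLE scaling that of Fzd5 at day 3 was 0.0013. Leaving out 1 library at a time, the ranges that crossed 0 were, at day 3, -0.024 to 0.19 for Fzd3, -0.11 to 0.062 for Fzd5 and -0.014 to 0.17 for Fzd6, and at day 5 -0.30 to 0.32 for Fzd7. In the KO course they were -0.30 to 0.057 for Fzd2, -0.19 to 1.86 for Fzd5, -0.034 to 0.35 for Fzd6 and -0.45 to 0.20 for Fzd7, set by which day 5 KO library was left out. At day 10 they were -0.20 to 0.11 for Fzd8 between KO and control, -0.11 to 0.17 for Fzd2 and -0.76 to 0.68 for Fzd5 between IWR1 and KO, and -0.17 to 0.30 for Fzd1 between IWR1 and control. With the length of the longest transcript, Fzd6 had a higher level per length, by more than the SD between libraries in the groups of days 3 and 10 but not in those of day 5, and Fzd3 moved by less than that SD in every group. The other pathway genes and the markers were recounted with DESeq2 only.

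Groups share replicate numbers, but nothing in the labels ties equal numbers together. Deviations of equally numbered libraries from their group means correlated at -0.022 to 0.05 at days 3 and 5. At day 10 the coefficients were -0.30 for control and KO, 0.24 for control and KO with IWR1, and -0.32 for KO and KO with IWR1. With 2 libraries per group these coefficients cannot tell whether equally numbered libraries share more than a number. With the replicate number as a block, 3, 4, 6, 3 and 4 members passed in the 5 comparisons of days 3 and 5, as without it, and 0 between KO and control at day 10. For IWR1 against KO 3 passed, against 4, Fzd6 being lost, and for IWR1 against control 1 passed, against 3, Fzd4 and Fzd9 being lost.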
